A study of Mus musculus with 6 samples.

Results

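Immediate early genes are switched on within minutes of a stimulus, without new protein synthesis, and the 10 described here are Fos, Fosb, Jun, Junb, Jund, Egr1, Egr2, Ier2, Atf3 and Dusp1. They were taken by symbol from a table of 25339 genes measured by RNA sequencing in mouse colon, and all 10 were found. The 3 lenvatinib libraries came from colon of mice given lenvatinib, an inhibitor of receptor tyrosine kinases, chiefly those of VEGF and FGF. The 3 DMSO libraries came from colon of mice given DMSO, the solvent. The labels name neither strain, sex nor age, and state no dose, duration or induction of colitis, although the series title speaks of colitis, MAdCAM-1 and B cells. Values are FPKM (fragments per kilobase of gene per 1000000 fragments), so levels of different genes can be set side by side.

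Growth factor receptors raise these genes through the kinase ERK, the serum response factor SRF and its ELK partners, while stress raises them through the kinases JNK and p38. FOS proteins pair with JUN proteins to form the transcription factor AP-1, EGR proteins bind GC-rich sites, and DUSP1 removes phosphate from the same kinases and so closes the loop. In the gut they respond to growth factors, to injury and to tissue handling, and they are transcribed in epithelium, stroma, muscle and immune cells alike.

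The promoters of 4 members are shown because Fos is the member that passed the test below, while Fosb, Atf3 and Dusp1 followed each other across libraries. Each line runs 5′ to 3′ from 250 bases before to 50 bases after the RefSeq start (build GRCm38.p6, which is not the build named for the table). Capitals mark matches, on either strand, to TGACGTCA (the cyclic AMP response element, CRE), its core TGACG, the EGR site GCGNGGGCG or the TATA box TATAAA.
Fos (chr12:85473640-85473939, plus strand): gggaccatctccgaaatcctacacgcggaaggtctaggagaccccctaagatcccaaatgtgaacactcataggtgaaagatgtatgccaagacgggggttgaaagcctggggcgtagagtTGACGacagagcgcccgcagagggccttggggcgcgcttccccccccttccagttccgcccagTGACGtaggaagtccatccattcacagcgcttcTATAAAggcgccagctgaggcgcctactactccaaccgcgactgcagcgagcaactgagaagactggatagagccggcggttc
Fosb (chr7:19309996-19310295, minus strand): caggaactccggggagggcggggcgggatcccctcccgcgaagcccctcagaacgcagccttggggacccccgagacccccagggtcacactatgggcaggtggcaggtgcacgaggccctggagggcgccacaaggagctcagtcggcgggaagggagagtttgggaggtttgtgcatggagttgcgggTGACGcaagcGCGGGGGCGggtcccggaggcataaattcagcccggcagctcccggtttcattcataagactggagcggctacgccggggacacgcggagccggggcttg
Atf3 (chr1:191183284-191183583, minus strand): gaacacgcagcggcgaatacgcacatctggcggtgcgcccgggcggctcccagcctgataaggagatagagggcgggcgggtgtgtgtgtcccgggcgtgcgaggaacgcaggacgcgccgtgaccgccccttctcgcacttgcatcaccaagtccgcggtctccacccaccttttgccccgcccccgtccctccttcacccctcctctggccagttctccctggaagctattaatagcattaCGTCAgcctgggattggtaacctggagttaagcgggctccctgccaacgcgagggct
Dusp1 (chr17:26508423-26508722, minus strand): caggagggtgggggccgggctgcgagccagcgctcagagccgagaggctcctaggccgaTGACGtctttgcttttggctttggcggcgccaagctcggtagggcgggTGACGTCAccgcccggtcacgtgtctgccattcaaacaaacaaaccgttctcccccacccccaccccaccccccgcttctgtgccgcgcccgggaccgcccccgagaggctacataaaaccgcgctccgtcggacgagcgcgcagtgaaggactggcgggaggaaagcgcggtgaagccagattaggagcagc

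Promoter windows were at hand for 8 of the 10 members, Egr1 and Ier2 being the others. The Fos window held TGACG at positions -129 and -66 and TATAAA at -33. The Dusp1 window held TGACG at -191 and the full TGACGTCA at -143, which contains the core on both strands. The Fosb window held TGACG at -60 and GCGNGGGCG at -50, and the Atf3 window held the core on the other strand at -7. TGACG was also in the windows of Junb and Egr2 and not in those of Jun and Jund. Among 32851 such windows over all genes, 20.8% held TGACG and 1.79% held TGACGTCA. GCGNGGGCG was in 5.55% and TATAAA in 13.6%. The AP-1 site TGANTCA, found in 7.81% of windows, was in none of the members' windows. The CArG box, the sequence that SRF binds, was in 1.63% of windows and, among members, in 4 of the 5 alternative windows of Egr2. Sites more than 250 bases before a start were not searched, so a motif missing from a window may lie outside it. A match describes letters only: the core was in the window of Fos, whose level differed between groups as shown next, and in those of 5 members whose levels overlapped.

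The 6 libraries held 37660528 to 39287783 reads in genes, recovered from the steps of the FPKM values. Libraries 2 and 3 of each group were nearly alike: between them the coefficient of variation beyond counting error was 3.13% in lenvatinib and 3.41% in DMSO, against 10.5 to 17.1% for every other pair. The labels call all of them biological replicates without naming animals, so each p-value reflects library-to-library spread only, part of which may be technical. DMSO 1 also stood apart in sex-linked transcripts (Xist 0.00147 FPKM and Ddx3y 6.54 FPKM, against Xist at 15.9 to 19.8 FPKM and Ddx3y listed at 0 in the other 5). By these transcripts DMSO 1 read as male and the other 5 as female. Each comparison with DMSO 1 below is therefore also one between sexes, and the part of sex was not tested. All 13 markers of colon epithelium had a mean of at least 1 FPKM, with summed levels of 12932 to 16335 FPKM in lenvatinib and 13878 to 15353 FPKM in DMSO.

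Fos, which encodes the c-FOS subunit of AP-1, was lower in lenvatinib. It measured 37.2, 41.5 and 40.1 FPKM in lenvatinib 1 to 3, against 71.8, 64.9 and 68.0 FPKM in DMSO 1 to 3. The groups did not overlap, and the highest lenvatinib library stayed well under the lowest DMSO library. Fos averaged 39.6 ± 2.20 FPKM in lenvatinib and 68.2 ± 3.46 FPKM in DMSO (SD, n = 3 each), a ratio of 0.580. The log2 fold change, lenvatinib over DMSO and computed on FPKM + 1 as all those below, was -0.77 with SE 0.0691. It passed in limma, a test fitted across 11774 genes, with a Benjamini-Hochberg adjusted p of 0.00558. The exact permutation test gave p = 0.1, two-sided, which is the smallest that 3 against 3 allows. Each value rests on 3001 to 5756 reads, so counting error is 1.32 to 1.83%. In bulk tissue, fewer cells that express Fos and less Fos RNA per cell cannot be told apart.

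Since libraries 2 and 3 were alike, Fos was also read over 4 profiles, library 1 and the mean of libraries 2 and 3 in each group. The ratio of lenvatinib to DMSO was 0.517 for library 1 over library 1 and 0.614 for the means of libraries 2 and 3. It was 0.559 for lenvatinib 1 over the DMSO mean and 0.568 for the lenvatinib mean over DMSO 1. Counting each such mean as 1 sample, 2 against 2, the call was lost in limma (adjusted p = 0.265), where 3 of all 11774 genes (0.0255%) passed. With libraries 2 and 3 kept apart but tied by a random block, Fos passed (adjusted p = 0.0387), with 46 genes (0.391%) in all. Without DMSO 3 the limma adjusted p was 0.0536. Leaving out DMSO 1 leaves only libraries that read as female. There Fos had a log2 fold change of -0.73 and passed (limma adjusted p = 0.0192), as did 2.29% of all genes tested.

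Of the 8 members with a mean of at least 1 FPKM, which were tested, 1 passed in limma and it was lower. None was higher. Over all genes tested 0.934% passed as lower, 1.1% as higher and 2.03% in either direction. Fos, Egr1 and Ier2 were lower in every lenvatinib library than in any DMSO library, 3 of 8, and over all genes tested 17.5% were lower without overlap (27.5% in either direction). An unadjusted p below 0.05 was found for the same 3 genes, against 22% of all genes tested (14.5% lower and 7.49% higher). The median log2 fold change of the 8 was -0.10, against -0.07 for all genes tested. With sample weights, which set lenvatinib 1 at a weight of 0.0886, 4 members passed as lower and 1 as higher, but so did 64.4% of all genes tested.

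**Figure D1:**
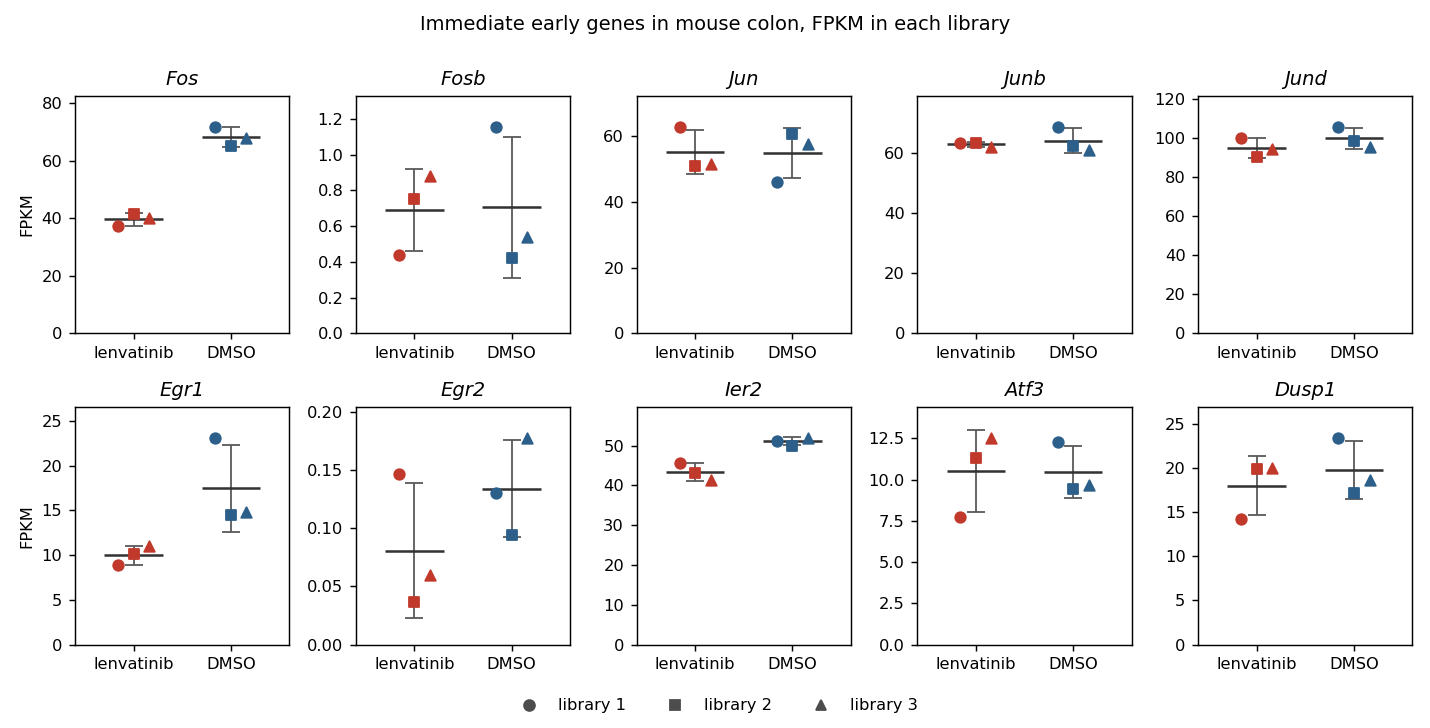
FPKM of each of the 10 members in every library, lenvatinib left and DMSO right, with the marker shape giving the library number, the line the group mean and the bars 1 SD (n = 3). Fos, Egr1 and Ier2 have groups that do not overlap, and the other 7 overlap.

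Egr1, a zinc finger transcription factor that ERK signalling raises, measured 8.87, 10.1 and 10.97 FPKM in lenvatinib 1 to 3 and 23.1, 14.5 and 14.9 FPKM in DMSO 1 to 3. All lenvatinib libraries were lower, and DMSO 1 lay far above the other DMSO libraries. The means were 9.98 ± 1.05 FPKM in lenvatinib and 17.5 ± 4.88 FPKM in DMSO (SD, n = 3 each), a ratio of 0.570 and thus close to that of Fos. The log2 fold change was -0.73 with SE 0.185, and Egr1 did not pass in limma (adjusted p = 0.113). Without DMSO 1 it was -0.52 (limma adjusted p = 0.0793). Over the 4 profiles the ratio spread from 0.383 to 0.717, wider than for Fos.

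Ier2, a nuclear regulator of transcription, measured 45.6, 42.98 and 41.3 FPKM in lenvatinib 1 to 3 and 51.3, 49.99 and 51.9 FPKM in DMSO 1 to 3. Its groups lay close together but did not overlap. The ratio of means was 0.848 and the log2 fold change -0.23 with SE 0.0599, which did not pass in limma (adjusted p = 0.113). It passed without lenvatinib 1 (adjusted p = 0.00919), a setting in which 38% of all genes tested passed. The exact permutation test gave p = 0.1 for Egr1 and for Ier2, the smallest possible.

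None of the 3 JUN genes, which encode the partners of FOS in AP-1, passed, and their groups overlapped. Jun measured 62.9, 50.8 and 51.7 FPKM in lenvatinib 1 to 3 and 46.1, 60.6 and 57.7 FPKM in DMSO 1 to 3. Library 1 was the highest of its group in lenvatinib and the lowest in DMSO, so the ranges crossed. The log2 fold change of Jun was 0.01, with a 95% interval from -0.31 to 0.33. Junb, which forms less active dimers than Jun in many settings, measured 63.5, 63.5 and 61.9 FPKM in lenvatinib and 68.9, 62.5 and 61.2 FPKM in DMSO. Its log2 fold change was -0.02, with an interval from -0.18 to 0.13. Jund, the third JUN gene, measured 99.8, 89.99 and 94.3 FPKM in lenvatinib and 105.7, 98.5 and 94.99 FPKM in DMSO. Its log2 fold change was -0.07, with an interval from -0.24 to 0.09. The sign of each of these 3 small differences turned under at least 1 other scaling. Their limma adjusted p-values were 0.965, 0.828 and 0.526, which does not show that they were equal, but a fall as large as that of Fos lay outside all 3 intervals.

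Set against each JUN gene within a library, Fos was lower in lenvatinib. The ratio of Fos to Junb was 0.585, 0.653 and 0.648 in lenvatinib 1 to 3 and 1.04, 1.04 and 1.11 in DMSO 1 to 3. The ratio of Fos to Jund was 0.419 ± 0.0445 in lenvatinib and 0.685 ± 0.0286 in DMSO (SD, n = 3 each), and that of Fos to Jun was 0.728 ± 0.120 in lenvatinib and 1.27 ± 0.256 in DMSO. None of these ratios overlapped between groups (exact permutation test, two-sided p = 0.1 for each, the smallest possible, or 0.13 with Benjamini-Hochberg adjustment over 13 such measures). Fos took 15.7 ± 1.42% of the summed FPKM of Fos, Fosb, Jun, Junb and Jund in lenvatinib and 23.7 ± 0.967% in DMSO. The ratio of Fos to Egr1 did overlap, at 3.66 to 4.19 in lenvatinib and 3.11 to 4.57 in DMSO (exact permutation test, two-sided p = 1). All of these measures were chosen with the members' values known.

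**Figure D2:**
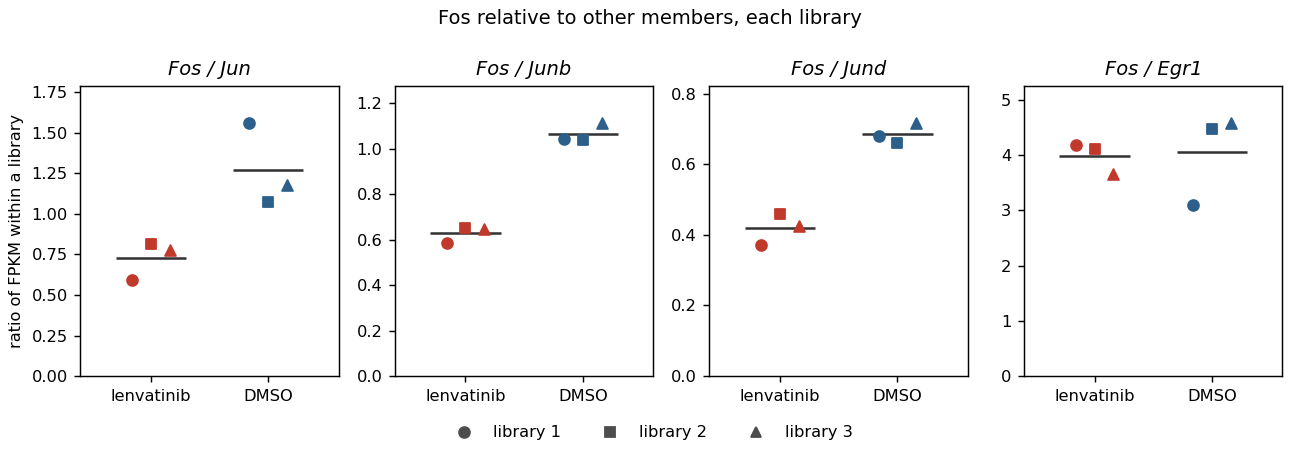
Ratio of Fos FPKM to Jun, Junb, Jund and Egr1 FPKM within each library, lenvatinib left and DMSO right, with lines at the group means. The ratio to Junb is 0.585 to 0.653 in lenvatinib and 1.04 to 1.11 in DMSO, while the ratio to Egr1 overlaps.

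Fosb, which encodes the FOSB partner in AP-1, was low and was not tested, since its mean of 0.698 FPKM over the 6 libraries was under the minimum. It measured 0.436, 0.753 and 0.882 FPKM in lenvatinib 1 to 3 and 1.16, 0.421 and 0.537 FPKM in DMSO 1 to 3. The groups overlapped fully, and each value rests on 63 to 166 reads. Egr2, which belongs to the EGR family, was near 0 at 0.147, 0.0366 and 0.0597 FPKM in lenvatinib 1 to 3 and 0.130, 0.0945 and 0.178 FPKM in DMSO 1 to 3. It rests on 13 to 63 reads per library, with a counting error of 12.6 to 27.7%. The groups overlapped through lenvatinib 1, which was higher than DMSO 1 and DMSO 2.

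Atf3, a stress-induced repressor and partner of JUN proteins, measured 7.71, 11.3 and 12.5 FPKM in lenvatinib 1 to 3 and 12.3, 9.46 and 9.65 FPKM in DMSO 1 to 3. Its means were 10.5 ± 2.502 FPKM in lenvatinib and 10.5 ± 1.57 FPKM in DMSO (SD, n = 3 each), and it did not pass in limma (adjusted p = 0.9799). Dusp1, the phosphatase, measured 14.2, 19.9 and 20.004 FPKM in lenvatinib 1 to 3 and 23.5, 17.2 and 18.7 FPKM in DMSO 1 to 3. Its log2 fold change was -0.13, with an interval from -0.54 to 0.27 (limma adjusted p = 0.636). In both genes lenvatinib 1 was the lowest of the 6 libraries, while DMSO 1 was the highest of its group.

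How the members followed each other across the 6 libraries is given as a description, over libraries that share their near-alike pairs. Fos followed Egr1 (Pearson r = 0.91) and Ier2 (r = 0.90), with r = 0.16 for Atf3 and 0.13 for Fosb. Fosb, Atf3 and Dusp1 followed each other (r = 0.88 to 0.92), and Jun ran against all 3 of them (r = -0.97 with Fosb, -0.91 with Atf3 and -0.94 with Dusp1). Egr1 stood between these sets, with r = 0.68 for Dusp1, and Junb, Jund and Egr2 followed Fos less closely, with r of 0.30, 0.48 and 0.48 for Fos. For Fos, Egr1 and Ier2 all lenvatinib libraries stood below all DMSO libraries. For Fosb, Atf3, Dusp1 and Jun the groups overlapped, and library 1 differed from libraries 2 and 3 in opposite directions in the 2 groups. Fosb in DMSO 2 and 3 averaged 0.414 times its level in DMSO 1, and in lenvatinib 2 and 3 it averaged 1.88 times its level in lenvatinib 1. For Atf3 these ratios were 1.54 in lenvatinib and 0.779 in DMSO, and for Jun 0.815 in lenvatinib and 1.28 in DMSO. Egr1 had the same trait, at 1.19 in lenvatinib and 0.635 in DMSO, and Fos a smaller one, at 1.098 in lenvatinib and 0.925 in DMSO.

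**Figure D3:**
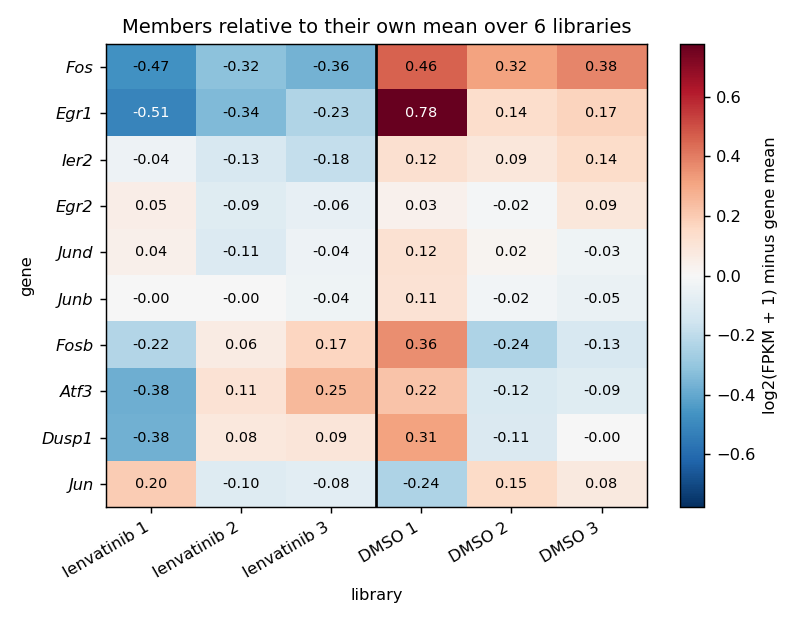
Level of each member in each library relative to its own mean over the 6 libraries, on the log2(FPKM + 1) scale, lenvatinib left of the line and DMSO right of it. Fos is at -0.47 to -0.32 in lenvatinib and 0.32 to 0.46 in DMSO, while Fosb, Atf3 and Dusp1 have their lowest lenvatinib value and their highest DMSO value in library 1.

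In lenvatinib the members ranked Jund, Junb, Jun, Ier2, Fos, Dusp1, Atf3, Egr1, Fosb and Egr2 from the highest mean FPKM to the lowest. In DMSO the order was Jund, Fos, Junb, Jun, Ier2, Dusp1, Egr1, Atf3, Fosb and Egr2. Fos was thus rank 5 in lenvatinib and rank 2 in DMSO, and Egr1 was rank 8 in lenvatinib and rank 7 in DMSO. Neighbours whose library values overlapped were Junb and Jun, Ier2 and Fos, and Atf3 and Egr1 in lenvatinib. In DMSO they were Fos and Junb, Jun and Ier2, and Dusp1 and Egr1. By mean level over all 6 libraries, Jund lay above 94% of the genes tested, Fos above 88.9% and Egr1 above 63.8%.

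**Figure D4:**
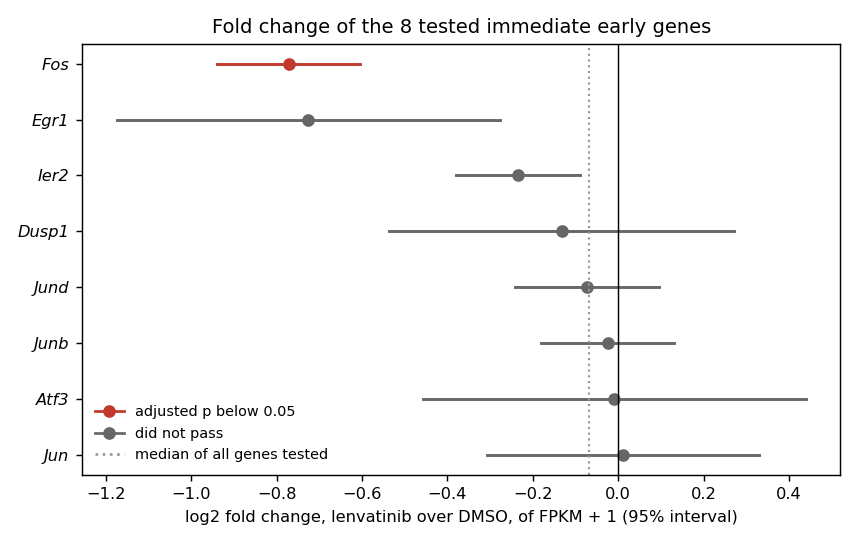
Log2 fold change, lenvatinib over DMSO, of FPKM + 1 for the 8 tested members, with 95% intervals from limma; the dotted line is the median of all genes tested. Fos at -0.77 passed, and the interval of every other member but Egr1 and Ier2 spans 0.

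The wider class of primary response genes moved in both directions. In a list of 50, 45 were tested, of which 2 rose, 3 fell and 40 did not pass in limma, or 5 of 45 against 2.03% of all genes tested. Its median log2 fold change was -0.05. Cebpd, a C/EBP transcription factor of the acute phase response, rose to 41.8 ± 2.71 FPKM in lenvatinib, against 21.5 ± 1.29 FPKM in DMSO (log2 fold change 0.93, adjusted p = 0.00393). Its values were 44.9, 39.8 and 40.6 FPKM in lenvatinib 1 to 3 and 19.97, 22.3 and 22.1 FPKM in DMSO 1 to 3. It passed in 15 of 17 other settings, among them each that leaves out 1 library, but not with libraries 2 and 3 averaged. Maff, a small MAF protein, rose to 5.66 ± 0.304 FPKM in lenvatinib, against 3.59 ± 0.144 FPKM in DMSO (limma adjusted p = 0.0204), a call lost without lenvatinib 2, lenvatinib 3, DMSO 2 or DMSO 3.

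The 3 that fell included Phlda1, an ERK-responsive regulator of growth factor signalling, at 12.5 ± 0.2999 FPKM in lenvatinib and 19.4 ± 1.07 FPKM in DMSO (limma adjusted p = 0.0102), a call lost without lenvatinib 2, lenvatinib 3 or DMSO 3. Id1, a BMP-responsive inhibitor of helix-loop-helix factors, fell to 71.1 ± 0.828 FPKM in lenvatinib, against 103.4 ± 9.495 FPKM in DMSO (limma adjusted p = 0.0305), a call lost without lenvatinib 2, lenvatinib 3, DMSO 2 or DMSO 3. Ccn1, a matricellular protein and target of YAP and SRF, fell to 7.21 ± 1.07 FPKM in lenvatinib, against 11.8 ± 0.490 FPKM in DMSO (limma adjusted p = 0.0437). The Ccn1 call was lost in 11 of 17 settings, among them leaving out any library but lenvatinib 1. It was also lost with median of ratios scaling, under which 3 of the list passed as higher and 2 as lower. Ccn2, its relative, measured 9.02 ± 1.501 FPKM in lenvatinib and 6.06 ± 1.05 FPKM in DMSO and did not pass (adjusted p = 0.147). In the test of all 6 libraries 20 of the 45 had an unadjusted p below 0.05, against 22% of all genes tested. With libraries 2 and 3 averaged none of the 45 passed in limma.

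Among FOS and EGR relatives and the nuclear receptor genes Nr4a1, Nr4a2 and Nr4a3, none that was tested passed. Fosl2, for the FOS-related protein FRA2, measured 35.0 ± 2.57 FPKM in lenvatinib and 28.7 ± 2.696 FPKM in DMSO, higher without overlap, and did not pass (limma adjusted p = 0.162). Fosl1, for FRA1, overlapped, at 1.43 FPKM on average in lenvatinib and 1.697 FPKM in DMSO. Egr3, which was below the minimum and not tested, measured 0.203 FPKM on average in lenvatinib and 0.578 FPKM in DMSO, and its groups did not overlap. Nr4a2, also below the minimum, measured 0.477 FPKM on average in lenvatinib and 0.790 FPKM in DMSO without overlap, and Nr4a3 overlapped. Nr4a1, an orphan nuclear receptor of the same family, measured 1.22 FPKM on average in lenvatinib and 2.21 FPKM in DMSO, also without overlap, and did not pass (limma adjusted p = 0.240). Of the 45 tested genes of the wider list, 11 were higher and 9 lower without overlap, against 10% and 17.5% of all genes tested.

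**Figure D5:**
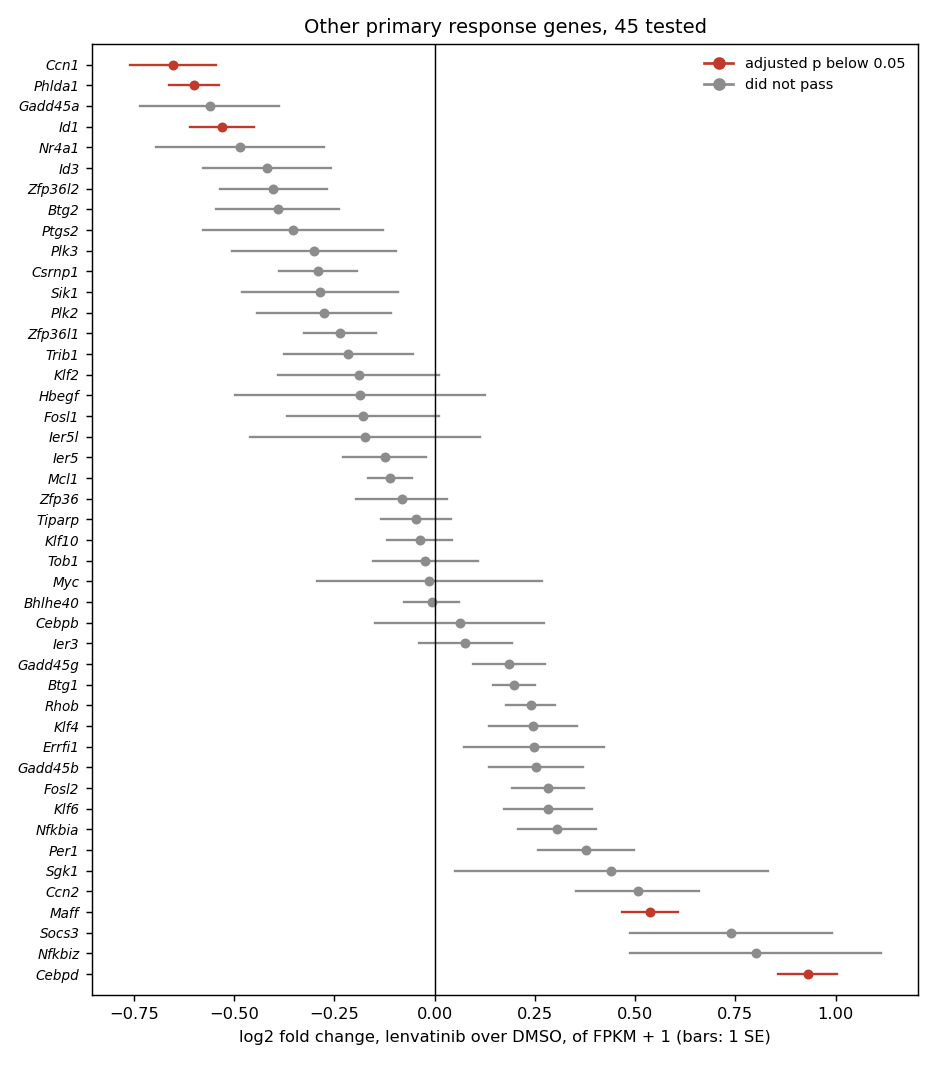
Log2 fold change, lenvatinib over DMSO, of FPKM + 1 for the 45 tested genes of the wider primary response list, with bars of 1 SE. The 5 that passed are Cebpd and Maff, higher, and Phlda1, Id1 and Ccn1, lower.

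None of the 14 AP-1 partners and regulators passed in limma on FPKM or with voom on reads. An unadjusted p below 0.05 was found for 2, against 22% of all genes tested. The median log2 fold change of the 14 was -0.09. Without lenvatinib 1, where 38% of all genes tested passed, 6 of the 14 did. Of 24 tested factors upstream of immediate early genes, none passed by either route. Of these, 3 had an unadjusted p below 0.05, against 22% of all genes tested. Without lenvatinib 1, 11 of the 24 passed, 3 higher and 8 lower. Elk3, an ETS partner of SRF, measured 2.80 ± 0.818 FPKM in lenvatinib and 4.05 ± 0.0905 FPKM in DMSO (limma adjusted p = 0.185). Creb1, which binds the CRE, measured 4.70 ± 0.715 FPKM in lenvatinib and 5.96 ± 0.385 FPKM in DMSO (limma adjusted p = 0.192). Mrtfb, a coactivator of SRF, measured 6.38 ± 0.335 FPKM in lenvatinib and 5.25 ± 0.155 FPKM in DMSO, higher without overlap (limma adjusted p = 0.126). Nab2, a corepressor and target of EGR1, overlapped between groups (adjusted p = 0.234).

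Among 9 tested relatives of Dusp1, 1 passed, against 2.03% of all genes tested. Dusp6, a phosphatase of ERK that ERK itself induces, measured 10.5, 11.1 and 10.8 FPKM in lenvatinib 1 to 3 and 17.9, 22.4 and 21.5 FPKM in DMSO 1 to 3. It fell without overlap (log2 fold change -0.86, limma adjusted p = 0.0107), a ratio of 0.525, while Dusp1 overlapped. The call was lost with libraries 2 and 3 averaged (adjusted p = 0.359) or tied by a random block (0.0621), and without lenvatinib 2, lenvatinib 3, DMSO 2 or DMSO 3. Without lenvatinib 1, 5 of the 9 passed, against 38% of all genes tested. Dusp4 and Dusp7, which act on ERK as well, were lower without overlap and did not pass (limma adjusted p = 0.167 and 0.165). Dusp3, another phosphatase of MAP kinases, was higher without overlap, at 10.8 ± 0.185 FPKM in lenvatinib and 9.44 ± 0.564 FPKM in DMSO, and did not pass either (limma adjusted p = 0.188). Dusp8 was lower without overlap, while Dusp2, Dusp5, Dusp9 and Dusp16 overlapped, and none of these passed. Of the 9, 4 were thus lower and 1 higher without overlap, against 17.5% and 10% of all genes tested.

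Of 18 tested target genes of AP-1 or EGR1, 2 fell and 16 did not pass, with a median log2 fold change of -0.30. Over all genes tested 0.934% fell, and the median was -0.07. Without lenvatinib 1, where 38% of all genes passed, 10 of the 18 did. Mmp9, a gelatinase, fell to 1.02 ± 0.247 FPKM in lenvatinib, against 3.25 ± 0.222 FPKM in DMSO (limma adjusted p = 0.00853). Mmp13, a collagenase, fell to 1.43 ± 0.343 FPKM in lenvatinib, against 3.85 ± 0.605 FPKM in DMSO (limma adjusted p = 0.0264). Both calls were lost with libraries 2 and 3 averaged, and without lenvatinib 3, DMSO 2 or DMSO 3, and that of Mmp13 also without lenvatinib 2 or DMSO 1. Odc1, the first enzyme of polyamine synthesis, measured 37.4 ± 5.27 FPKM in lenvatinib and 48.8 ± 1.69 FPKM in DMSO, and Cd44, a hyaluronan receptor, 10.8 ± 5.65 FPKM in lenvatinib and 22.96 ± 2.14 FPKM in DMSO. Neither passed in limma (adjusted p = 0.123 and 0.125).

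Heat shock genes, which like immediate early genes respond to stress and handling, had a log2 fold change below 0 in 12 of 14, and none passed in limma or with voom. Without lenvatinib 1, 7 of the 14 passed, against 38% of all genes tested. Without DMSO 1, 6 of the 14 passed, all lower, against 2.29% of all genes tested. An unadjusted p below 0.05 was found for 12 of the 14, against 22% of all genes tested. The median log2 fold change of the 14 was -0.50. Their summed level was 1944, 1600 and 1593 FPKM in lenvatinib 1 to 3 and 1947, 2785 and 2738 FPKM in DMSO 1 to 3, so DMSO 2 and 3 were high and the libraries numbered 1 were alike. Hsph1, a chaperone cofactor, measured 9.77, 8.63 and 8.10 FPKM in lenvatinib and 14.6, 32.0 and 30.6 FPKM in DMSO (limma adjusted p = 0.0827). Hsph1 and Fos were both lower in every lenvatinib library than in any DMSO library. Within DMSO, library 1 was the lowest for Hsph1 and the highest for Fos. The part of stress or handling in the level of Fos was not tested.

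Markers of other cell types differed between the same groups as Fos did. All 8 macrophage markers fell, with summed levels of 141.6 to 195.6 FPKM in lenvatinib and 341.04 to 386.5 FPKM in DMSO. Of 8 fibroblast markers 5 fell (summed 436.4 to 575.5 FPKM in lenvatinib, 690.8 to 726.6 FPKM in DMSO). All 4 tested mast cell markers fell (summed 0.126 to 0.894 FPKM in lenvatinib, 203.05 to 224.1 FPKM in DMSO), and Fcer1a and Ms4a2 were listed at 0 in every lenvatinib library. Each of the 4 averaged under 1 FPKM in lenvatinib and reached the minimum through DMSO, so passing the filter and being lower went together. Of 9 small intestinal markers 6 rose (summed 634.3 to 954.7 FPKM in lenvatinib, 434.9 to 575.7 FPKM in DMSO), and 8 of the 9 had a log2 fold change above 0. Much of each sum was Fabp2, which overlapped between groups, averaging 414.2 FPKM in lenvatinib and 493.7 FPKM in DMSO. Fabp6 averaged 156.1 FPKM in lenvatinib and 2.00 FPKM in DMSO, and Defa24 119.1 FPKM in lenvatinib and 0.377 FPKM in DMSO. Defa24, Apoa1, Sis and Mmp7 averaged under 1 FPKM in DMSO and reached the minimum through lenvatinib, so for them passing the filter and being higher went together. B cell markers were lower without overlap in 7 of 7, none passing in limma (summed 9.88 to 44.3 FPKM in lenvatinib, 73.7 to 86.8 FPKM in DMSO, all 7 at an unadjusted p below 0.05). Over all genes tested 0.934% passed as lower and 1.1% as higher in limma. With libraries 2 and 3 averaged, 3 of all 11774 genes passed. Over all genes tested 17.5% were lower and 10% higher without overlap, and 22% had an unadjusted p below 0.05. No marker of smooth muscle or of colon epithelium passed in limma, with 2 of 8 and 3 of 13 at an unadjusted p below 0.05. Nor did any of 8 endothelial, 7 T and NK cell, 3 neutrophil, 3 enteric neuron or glia and 4 adipocyte markers, of which 2, 0, 2, 0 and 1 had such a p. The 3 tested neutrophil markers were all higher without overlap, while Cxcr2, Csf3r and Mmp8, below the minimum and not tested, overlapped between groups. S100a8 averaged 4.91 FPKM in lenvatinib and 0.811 FPKM in DMSO, so it reached the minimum through lenvatinib. Summed levels over the list were 7.03 to 36.3 FPKM in lenvatinib and 3.58 to 4.87 FPKM in DMSO, lenvatinib 1 being the highest. The log2 fold change was below 0 for all 7 T and NK cell markers, though the groups overlapped in each. Summed T and NK cell levels were 118.4, 18.2 and 19.4 FPKM in lenvatinib 1 to 3 and 62.7, 85.0 and 84.9 FPKM in DMSO 1 to 3. Lenvatinib 1 was thus the highest of all libraries. For smooth muscle the log2 fold change was above 0 for 7 of 8 markers. The part of cell makeup in the levels of Fos and Egr1 was not tested.

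Outside the members, the 8 genes whose values over the 6 libraries were most like the mean of the 8 tested members were Mboat1, Thbs2, Slc12a8, Mrs2, Fam199x, Mfap4, Pmp22 and Kctd14 (Pearson r = 0.986 to 0.993). Mboat1, a lysophospholipid acyltransferase, measured 73.2, 84.2 and 85.5 FPKM in lenvatinib 1 to 3 and 114.9, 98.04 and 100.9 FPKM in DMSO 1 to 3. Thbs2 and Mfap4, which encode matrix proteins of stromal cells, were likewise highest in DMSO 1 and lowest in lenvatinib 1. None of the 8 passed in limma. The genes that ran most against that mean were Fam8a1, the clock gene Per2, Tmem253 and Ccn2 (r = -0.990 to -0.986). Per2 measured 2.90, 2.56 and 2.64 FPKM in lenvatinib 1 to 3 and 1.92, 2.31 and 2.30 FPKM in DMSO 1 to 3. In all, 225 genes (1.91% of the others tested) had an r above 0.9, over libraries of which 2 pairs were near alike.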

How the data were processed

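Per the labels' protocols, RNA for 6 mouse colon libraries was extracted and made into libraries with a commercial RNA-seq kit. The authors deposited 1 table of FPKM values, and all 6 columns were used. Per the submitters' processing notes, HTSeq and GRCm39 were used. No source used here gives the aligner, the annotation, the strand setting or any filter. Without strand, reads of Jun, Junb, Jund, Atf3 and Dusp1 cannot be told apart from those of genes that overlap them on the opposite strand, such as Junos and Prdx2.

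In each of 23951 genes above 0 the values were whole multiples of 1 read within 0.001 reads, which gave reads per gene and library. The 11774 genes whose mean over libraries reached 1 FPKM were tested on log2(FPKM + 1), pseudocount 1, with limma 3.58.1 in R 4.3.3, trended and robust prior, two-sided, Benjamini-Hochberg over all genes tested, threshold 0.05. This scale understates changes of low genes. The test was run on simulated data in which all libraries were independent. Such data cannot show its rate of false calls where libraries of a group are near alike, as here. For single values the exact permutation test used all 20 regroupings. Counting errors cover counting only. Members and lists were chosen with earlier results of these data known. Named genes are all members, list genes past the threshold or else up to 4 with the smallest p, and the 8 nearest and 4 most opposite in pattern. Fosl1, Egr3, Nr4a1, Nr4a2, Nr4a3, Fcer1a and Ms4a2 were named after their values were seen. So were Dusp2, Dusp5, Dusp8, Dusp9 and Dusp16, and the markers Apoa1, Sis, Mmp7, S100a8, Cxcr2, Csf3r and Mmp8. Promoters are RefSeq's, matched by symbol.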

Additional observations from a re-analysis of the deposited data

How the results depend on the processing

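In limma, 1 member, 5 genes of the wider primary response list and 239 of all genes passed. These counts were 5, 37 and 7582 with sample weights, which gave lenvatinib 1 a weight of 0.0886, and 0, 0 and 3 with libraries 2 and 3 averaged. With those libraries as a random block 1 gene of the wider list and 46 of all genes passed, and with no filter on low values 3 and 140. Leaving out 1 library gave 0 to 2 members, 1 to 21 genes of the wider list and 45 to 4479 of all genes; the highest counts came without lenvatinib 1, and no member passed without DMSO 3. No member passed with the replicate number as a block (Fos adjusted p = 0.0811), 0 of the wider list and 29 of all genes. Same-numbered libraries deviated from their group means with correlations of -0.20, -0.16 and -0.15. With libraries 2 and 3 near alike, these values mostly restate library 1 against the other libraries of its group. They cannot settle whether the numbers pair the libraries.

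Fos kept its direction in all 17 settings, with log2 fold changes from -0.81 to -0.70, and passed in 14. Egr1 and Ier2 kept theirs in all 17 (-0.87 to -0.48 and -0.27 to -0.16) and passed in 1 and 2. With median of ratios scaling the sign turned for Junb (0.051), Jund (0.0032) and Atf3 (0.063), and with quantile normalization for Atf3 (0.059) and Atf2 (0.0023). With TPM scaling it turned for Jun (-0.0020). With sample weights it turned for Jun (-0.18), Junb (0.016), Atf3 (0.26) and Dusp1 (0.12), and Jun and Atf3 passed there (adjusted p = 0.0179 and 0.0125), as did 64.4% of all genes tested. Leaving out 1 library gave -0.11 to 0.087 for Jun, -0.058 to 0.026 for Junb, -0.14 to 0.18 for Atf3 and -0.22 to 0.022 for Dusp1. The turns came without lenvatinib 1 (Jun, Atf3, Dusp1) and without DMSO 1 (Jun, Junb, Atf3). The cause was not tested. With voom on the recovered reads Fos passed (adjusted p = 0.00594) and no other member did. Without the filter Fosb and Egr2 were tested and did not pass (adjusted p = 1.00 and 0.537). Fosb and Egr2 have the fewest reads, 13 to 166 per library.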
